A study of Mus musculus with 60 samples.

Results

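Integrins and laminins form the contact between a cell and its basement membrane, and their mRNA was followed here in mouse fibroblasts during induced reprogramming and during inhibition of TGFb receptors. The set comprised every gene of both count tables whose identifier mapped to a listed integrin or laminin chain symbol. They numbered 35 of the 56980 gene identifiers in each table, of which 25 were integrin chains and 10 were laminin chains, and the rule itself used no measured value. All 35 were present once in each table. The filter on low counts kept 32 of them for reprogramming and 31 for the inhibitors; Itgae, Itgax and Itgb6 were too low in both, and Itgam was too low in the second.

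The reprogramming table covered 36 libraries of tail tip fibroblasts from 2 mouse lines, as 12 groups of 3. D/KO cells (genotype 4FJ_ERCC1_(d/-), on a mixed C57BL6J and FVB background) were male, 8 weeks old and carried 1 truncated and 1 null allele of Ercc1, a DNA repair endonuclease subunit, while WT cells (genotype 4FJ_(+/-)_OCT4-GFP) were female and 22 weeks old. Both lines carried a cassette of the reprogramming factors OKSM in the Col1a1 locus that doxycycline induces, so day 0 controls held the same transgenes as treated cells of their line. D/KO cells also carried the rtTA transactivator in ROSA26; the background and rtTA allele of the WT line were not given in the sources used here. Cells were collected at day 0, 2 or 4 of doxycycline at 2 µg/ml, with or without VC, a mixture of ascorbic acid at 50 µg/ml and the GSK3 inhibitor CHIR at 3 µM. The inhibitor table covered 24 libraries in 8 groups of 3. D/KO tail tip fibroblasts (ERCC1 d/-, female, 4 weeks, no reprogramming cassette) were left as controls or received Repsox or Vactosertib at 0.1 µM or DMH-1 or A83-01 at 1 µM for 3 days. The study gives these doses for its DNA methylation measurement with the same compounds. Its methods state that DNA and RNA came from the same samples. The labels themselves give no dose. Control WT cells (ERCC1 +/+, female, 14 weeks) came from tail tip or from skin, and a further group of the WT reprogramming line was labelled TGFB. Genotype, age and animal change together between D/KO and WT cells in both tables, and sex with them in the reprogramming table, and cannot be told apart. Nothing in the labels gives the 3 libraries of a group as separate animals, so p-values measure the spread between these libraries.

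Each integrin is a pair of 1 alpha and 1 beta chain that spans the membrane, binds matrix or another cell outside and couples to actin or, for the beta4 chain, to keratin filaments inside. Laminins are trimers of an alpha, a beta and a gamma chain and are the first network laid down in a basement membrane. Fibroblasts are known for collagen and fibronectin receptors, whereas the alpha6beta4 integrin and laminins that hold Lama3 and Lamb3 are typical of the hemidesmosomes that anchor epithelium. Several RGD-binding integrins also activate latent TGFb.

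Depth was between 16538374 and 18484951 counts per library for reprogramming and between 17102639 and 30599138 for the inhibitors. Levels of 1 gene across libraries are given as CPM, counts scaled to library size. Pou5f1, an induced factor, lay between 0.471 and 2.88 CPM in the day 0 libraries and between 12.5 and 149.7 CPM in those that received doxycycline. Ercc1 itself had a lower mean in each D/KO group than in the WT group of the same day and treatment, with libraries that overlapped at day 0 without VC. The lines without the cassette overlapped as well, where DKO_control held 20.3 to 20.9 CPM and WT_control 13.3 to 21.7 CPM, with the higher mean in DKO_control. Ercc1 counts therefore do not check these labels, and whether the counted exons lie in the deleted part was not tested. The fibroblast markers were lowest in D/KO day 4 + VC, at a sum of 33143 to 34341 CPM, and highest in D/KO day 0 + VC, at 183651 to 253222 CPM. Markers of endothelium summed to 664 to 724 CPM in D/KO day 0 libraries and 14.6 to 17.4 CPM in WT day 0 libraries, with Pecam1 at 191 to 213 and 0.110 to 0.161 CPM; their part in the differences between the lines was not tested, and in bulk RNA fewer cells of a type and less RNA per cell cannot be told apart. Replicate 2 of DKO_Repsox, replicate 1 of WT_skin_control and replicate 3 of 4F_DKO_day0 stood apart from the others of their groups, and results that depend on them are given with and without them.

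To compare chains with each other, counts were scaled by gene length as well as library size (FPKM). At day 0 the shared beta1 chain Itgb1 was the most abundant integrin, at 383 ± 8.99 FPKM in D/KO and 324 ± 1.14 FPKM in WT cells (mean ± SD, n = 3). Itgb5, a partner of the vitronectin receptor, followed with 225 ± 25.1 and 163 ± 6.73 FPKM. Itga5, the fibronectin receptor alpha chain, stood at 86.2 ± 16.2 and 43.8 ± 5.17 FPKM, and Itga11, a receptor for fibrillar collagen, at 59.2 ± 5.55 and 21.8 ± 0.837 FPKM. This order was the same in both lines. Among laminins, Lamb1 (85.8 ± 10.2 FPKM), Lamb2 (85.1 ± 18.3 FPKM) and Lamc1 (82.6 ± 3.59 FPKM) did not differ beyond their spread in D/KO cells, and Lama4, an alpha chain of mesenchymal and vascular laminins, came next at 30.2 ± 2.61 FPKM. In WT cells Lamb2 led at 88.4 ± 2.98 FPKM, above Lamb1 at 59.6 ± 1.11 and Lamc1 at 52.5 ± 2.69 FPKM.

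Promoter windows are shown for 4 chains that the results turn on: Itga11 and Itga8, which moved in opposite directions under TGFb receptor inhibitors, Itga5, which fell with every inhibitor, and Lamb3, among the strongest rises on reprogramming. The windows reach from 250 bases before to 50 bases after the start and are from RefSeq on GRCm38.p6, which is not the build of the counts. Capitals mark CAGAC or, on the other strand, GTCTG, letters bound by SMAD proteins, which carry the TGFb signal to the nucleus. Itga11 spans chr9:62677605-62677904 (plus strand), Itga8 chr2:12301895-12302194 (minus strand), Itga5 chr15:103366742-103367041 (minus strand) and Lamb3 chr1:193301744-193302043 (plus strand, 1 of its 2 windows).
Itga11: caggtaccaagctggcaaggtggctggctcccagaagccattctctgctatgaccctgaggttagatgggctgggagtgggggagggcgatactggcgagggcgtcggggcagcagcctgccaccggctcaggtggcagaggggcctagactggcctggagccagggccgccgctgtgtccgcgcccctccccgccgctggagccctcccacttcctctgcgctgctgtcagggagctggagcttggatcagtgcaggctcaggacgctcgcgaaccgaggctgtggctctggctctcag
Itga8: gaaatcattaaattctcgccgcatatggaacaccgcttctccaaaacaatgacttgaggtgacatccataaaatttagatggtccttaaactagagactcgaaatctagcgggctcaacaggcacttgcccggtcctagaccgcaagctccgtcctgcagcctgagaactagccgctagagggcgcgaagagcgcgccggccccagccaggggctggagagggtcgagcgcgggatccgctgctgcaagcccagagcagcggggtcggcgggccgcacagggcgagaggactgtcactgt
Itga5: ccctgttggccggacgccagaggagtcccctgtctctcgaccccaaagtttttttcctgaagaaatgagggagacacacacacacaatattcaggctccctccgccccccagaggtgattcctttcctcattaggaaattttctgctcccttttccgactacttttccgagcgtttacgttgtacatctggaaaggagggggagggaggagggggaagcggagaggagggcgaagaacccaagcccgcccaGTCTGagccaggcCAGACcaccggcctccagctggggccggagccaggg
Lamb3: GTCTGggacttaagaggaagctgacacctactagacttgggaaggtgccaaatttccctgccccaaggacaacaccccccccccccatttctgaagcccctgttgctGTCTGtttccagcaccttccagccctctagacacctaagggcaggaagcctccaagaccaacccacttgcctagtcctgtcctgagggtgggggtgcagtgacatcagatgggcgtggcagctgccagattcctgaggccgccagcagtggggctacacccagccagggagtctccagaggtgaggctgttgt
The window of Itga5 held 1 match on each strand, that of Lamb3 held 2 on the opposite strand, and those of Itga11 and Itga8 held 0. CAGAC on either strand occurred in 17 of the 23 members with a window and in 49.5% of all 32544 windows of this length, so a match is common. The AP-1 letters TGANTCA, also read on both strands, occurred in 3 of the 23 members and in 7.79% of all windows, and in none of the 4 shown. For both motifs a member counted if any of its windows matched, with 26 windows in all. The count of members and the share of windows therefore differ in unit. Neither motif overlaps the other, and a match is a description of letters, not a site.

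To see how the chains changed on reprogramming, each day was set against day 0 of its own arm, with a call at an adjusted p below 0.05. In D/KO cells at day 4 + VC, 11 of the 32 tested chains rose and 13 fell, where 54.1% of all 15832 genes tested were called, 27.9% higher and 26.2% lower. In WT cells at day 4 + VC, 7 rose and 11 fell, against 44.7% of all genes, 22.7% higher and 22% lower. Without VC at day 4, 7 rose and 10 fell in D/KO (37% of all genes called, 18.3% higher and 18.7% lower) and 11 rose and 10 fell in WT (24.5%, 11.7% higher and 12.8% lower). At day 2 the calls were 6 up and 8 down in D/KO (27.4%, 14.3% higher and 13.2% lower), 7 up and 8 down in WT (10.6%, 6.26% higher and 4.3% lower), 8 up and 11 down in D/KO + VC (47.4%, 23.8% higher and 23.6% lower) and 9 up and 9 down in WT + VC (27.5%, 13.8% higher and 13.7% lower). The median log2 fold change over the tested chains lay near that of all genes, at -0.02 against 0.01 for D/KO day 4 + VC and -0.24 against 0.03 for WT day 4 + VC, and chains moved in both directions. Among chains called in D/KO day 4 + VC, the libraries of day 0 and day 4 overlapped for Itga4, Itga10 and Itgb5. Leaving out 1 library ended the calls of Itga4, Itga10, Itgb3, Itgb5, Lama1 and Lama4 there and of Lamb1 and Lamc3 in WT day 4 + VC. When libraries were scaled by their totals alone, the split moved toward rises, with 14 up and 9 down in D/KO day 4 + VC, 12 up and 8 down in WT day 4 + VC and 12 up and 8 down in D/KO day 2 + VC. All genes moved the same way, with a median log2 fold change of 0.377, 0.309 and 0.245 under that scaling. The share of all genes called under it is not given here. Of the 3 chains too low to test, Itgae reached 0.872 CPM, Itgax 0.266 CPM and Itgb6 0.237 CPM at most in the reprogramming libraries.

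**Figure D1:**
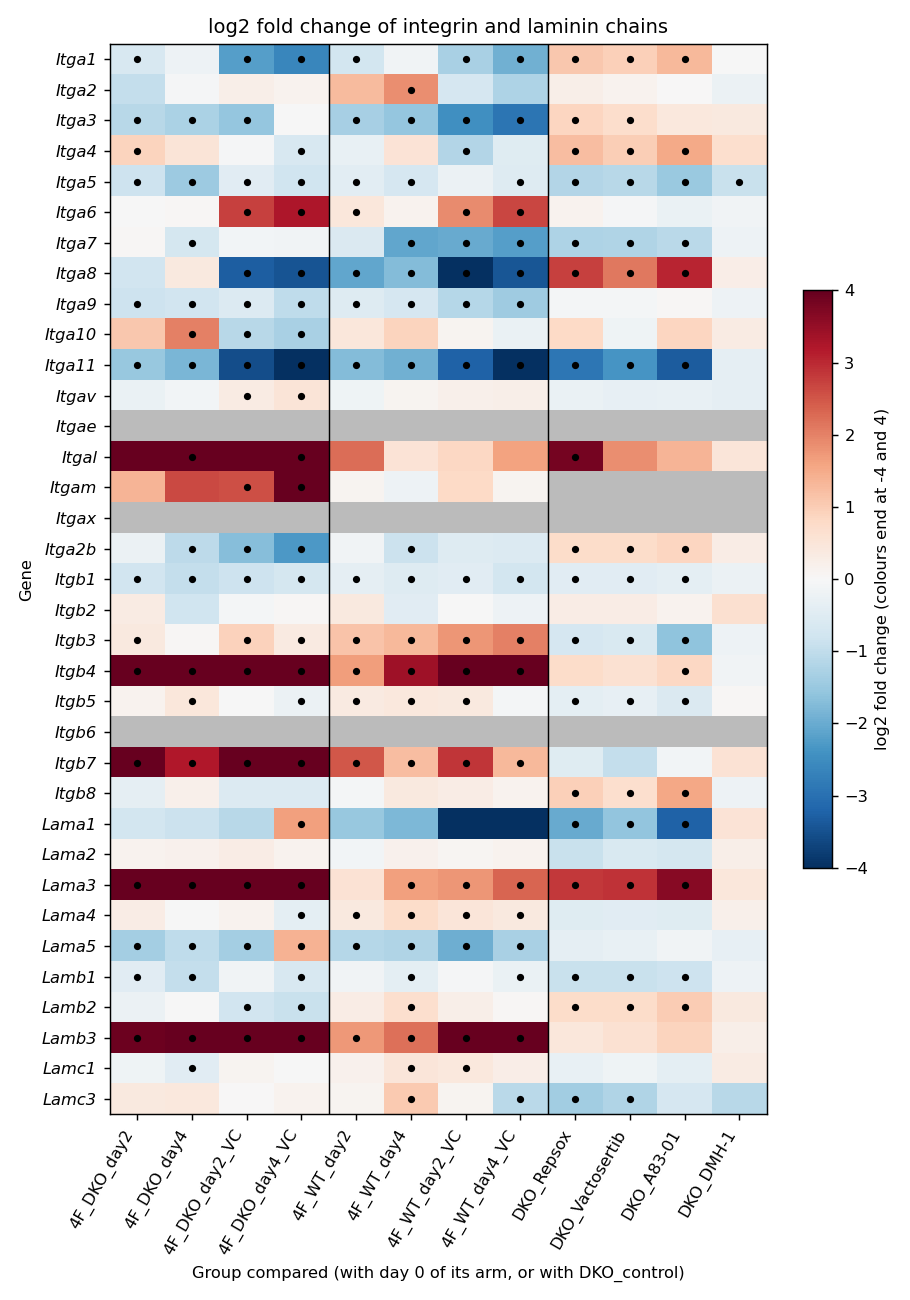
Log2 fold change of each chain (rows) in 12 groups (columns), the reprogramming groups against day 0 of their own arm and the inhibitor groups against DKO_control. Red is higher, blue lower, colours end at -4 and 4, dots mark adjusted p below 0.05 and grey marks chains that were not tested; Itgb4 and Lamb3 are red with a dot in all 8 reprogramming columns, and Itga11 is blue with a dot in the same 8.

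Itgb4 and Lamb3, chains of the epithelial laminin receptor and its ligand, had the largest rises at day 4 + VC in both lines. Itgb4 (ENSMUSG00000020758, chr11:115865535-115899238 on GRCm39, plus strand) encodes the beta4 chain of hemidesmosomes. In D/KO cells with VC its level was 9.26, 12.1 and 7.86 CPM at day 0, 872, 953 and 829.6 CPM at day 2 and 1476, 1594 and 1259 CPM at day 4. In WT cells with VC it was 6.70, 8.48 and 7.77 CPM, then 189, 219.9 and 238 CPM and 344, 319 and 302 CPM on the same days. Every library at day 2 lay above every library at day 0, and every library at day 4 above those of day 2, in both lines. The log2 fold change at day 4 + VC was 7.22 ± 0.17, adjusted p = 5.12e-27 in D/KO and 5.39 ± 0.16, adjusted p = 3.12e-24 in WT (± SE throughout, edgeR quasi-likelihood F-test). Without VC, Itgb4 went from 14.1, 16.8 and 23.6 CPM at day 0 to 317, 336 and 349.9 CPM at day 2 and 691, 656 and 556 CPM at day 4 in D/KO cells. The WT libraries without VC held 9.06, 8.11 and 7.46 CPM, 25.1, 28.2 and 25.6 CPM and 89.9, 79.7 and 91.2 CPM. At each day, D/KO libraries with doxycycline lay above all WT libraries with the same treatment. As a share of the summed FPKM of all beta chains, Itgb4 moved from 0.262% ± 0.0683 (SD, n = 3) to 35.1% ± 2.87 in D/KO + VC and from 0.215% ± 0.0268 to 10.54% ± 0.406 in WT + VC, and in D/KO day 4 + VC its 206 ± 24.2 FPKM did not differ beyond the spread from the 207 ± 15.9 FPKM of Itgb1.

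Lamb3 (ENSMUSG00000026639, chr1:192890007-193026186, plus strand) encodes the beta chain of the same laminin that alpha6beta4 binds. D/KO + VC libraries held 0.842, 0.603 and 0.632 CPM at day 0, 55.4, 51.98 and 66.7 CPM at day 2 and 86.9, 82.9 and 71.1 CPM at day 4. The WT + VC libraries held 0.442, 0.922 and 0.465 CPM, 13.7, 15.6 and 17.1 CPM and 15.3, 13.2 and 11.8 CPM, so that day 2 and day 4 overlapped in WT but not in D/KO cells. Its log2 fold change at day 4 + VC was 6.83 ± 0.19, adjusted p = 1.44e-25 in D/KO and 4.44 ± 0.21, adjusted p = 3.69e-19 in WT. Part of this rise came from a lower start, as day 0 libraries without VC held 1.74, 1.41 and 2.30 CPM in D/KO and 3.42, 3.06 and 2.91 CPM in WT; against these the log2 fold change at day 4 + VC was 5.46 and 2.10. Without VC at day 4 it stood at 55.4, 54.4 and 57.6 CPM in D/KO and 15.1, 15.1 and 12.7 CPM in WT.

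Lama3, the alpha chain of that laminin, was scarce. It lay at 0.259, 0.377 and 0.351 CPM in D/KO day 0 + VC and 12.9, 9.30 and 6.27 CPM at day 4 + VC, and at 0.442, 0.246 and 1.06 CPM and 3.02, 2.63 and 3.12 CPM in WT, with no overlap between the days in either line. The change was 4.83 ± 0.42, adjusted p = 2.64e-12 in D/KO and 2.33 ± 0.39, adjusted p = 8.23e-06 in WT.

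Itga6 (ENSMUSG00000027111, chr2:71575960-71688760, plus strand), the alpha partner of Itgb4, depended on VC. In D/KO cells it held 85.9, 80.8 and 78.5 CPM at day 0 and 84.8, 69.6 and 97.3 CPM at day 4 without VC, a difference that was not called (0.04 ± 0.12, adjusted p = 0.843). With VC it began at 25.1, 21.5 and 23.2 CPM and reached 151, 156 and 154 CPM at day 2 and 249.7, 214 and 198 CPM at day 4 (3.24 ± 0.14, adjusted p = 6.58e-21). WT cells held 16.8, 18.05 and 20.2 CPM at day 0, 16.7, 22.9 and 20.9 CPM at day 4, 7.71, 10.51 and 10.95 CPM at day 0 + VC and 56.5, 61.9 and 65.7 CPM at day 4 + VC (2.66 ± 0.14, adjusted p = 1.37e-17). The day 0 level with VC was below that without VC in every library of both lines, so against day 0 without VC the rise at day 4 + VC was smaller, 1.43 in D/KO and 1.74 in WT. Itga6 made up 1.28% ± 0.187 of alpha chain FPKM at D/KO day 0 + VC and 24.3% ± 2.07 at day 4 + VC.

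**Figure D2:**
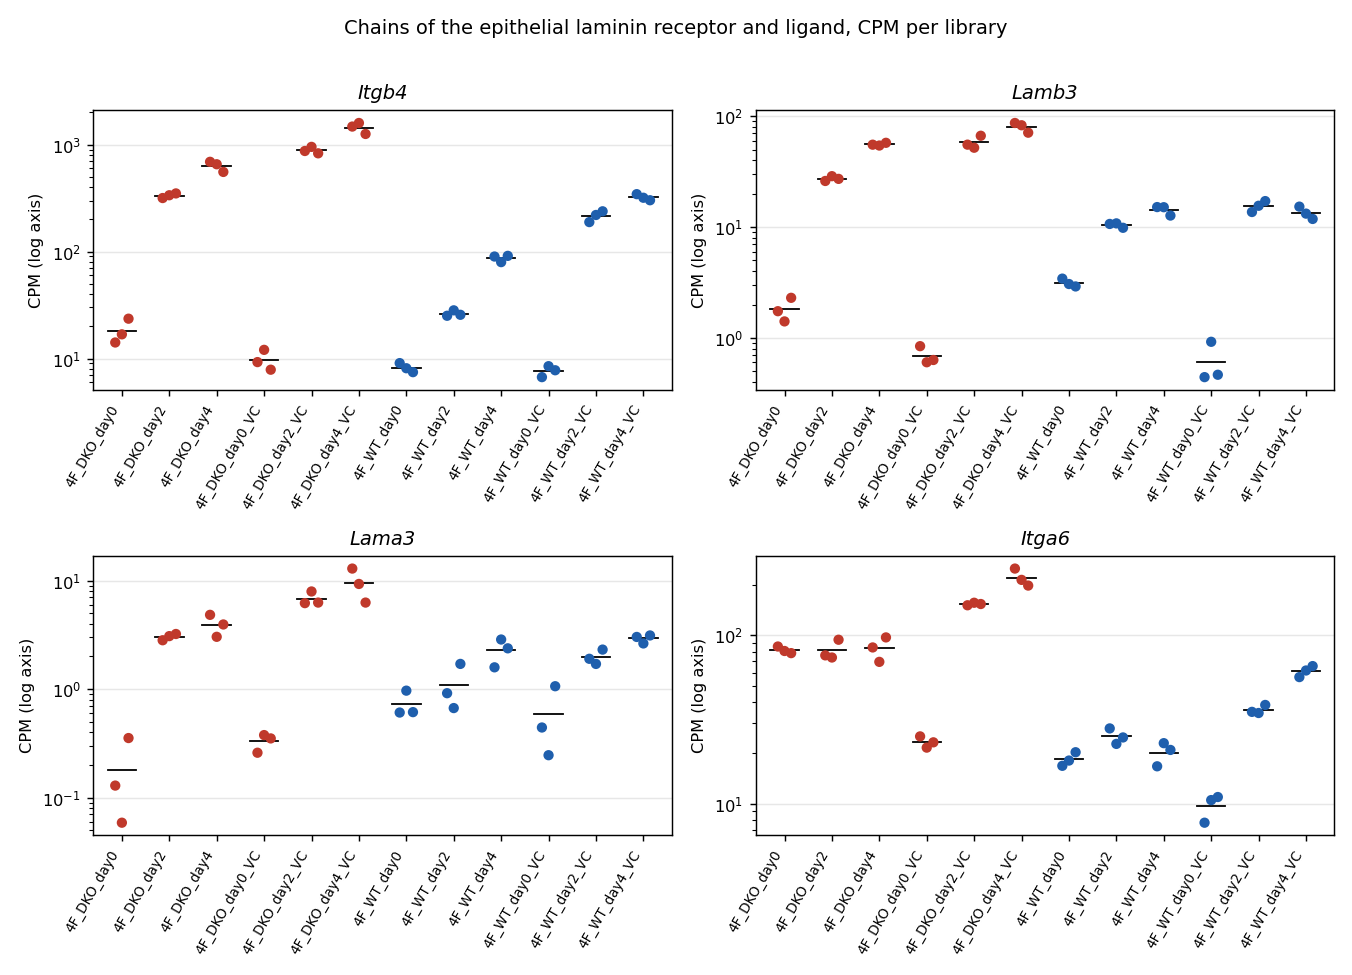
CPM per library (log axis) of Itgb4, Lamb3, Lama3 and Itga6 in the 12 reprogramming groups, D/KO in red and WT in blue; points are libraries and black bars are means of 3. Itgb4 rises with each day of doxycycline in all 4 arms and stands highest in D/KO day 4 + VC (1259 to 1594 CPM), whereas Itga6 rises only in the arms with VC, apart from a small step at WT day 2.

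Other markers of epithelium moved with these chains. The 7 keratinocyte and simple epithelium markers summed to 1.51 to 2.20 CPM in D/KO day 0 + VC and 481 to 594 CPM at day 4 + VC, and to 0.695 to 1.53 and 10.8 to 13.1 CPM in WT. Within the list, Krt14 reached 286, 394 and 421 CPM, Krt8 144, 153 and 119 CPM and Cdh1 48.4, 41.96 and 42.7 CPM in D/KO day 4 + VC, and Epcam 0.211 to 0.846 CPM. Krt5, the partner of Krt14 in basal keratinocytes, was at 0 counts at day 0 + VC and at 0.264 to 0.669 CPM at day 4 + VC (adjusted p = 0.00699). Trp63 (0.46 ± 0.41, adjusted p = 0.362) and Krt18 (1.21 ± 0.90, adjusted p = 0.27) were not called there, whereas Trp63 was called higher at WT day 4 + VC (2.05 ± 0.40, adjusted p = 6.98e-05) and D/KO day 4 (adjusted p = 1.11e-05), and Krt18 lower at D/KO day 4 (adjusted p = 0.00176). Their part in the rise of the epithelial laminin chains was not tested.

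The remaining laminin receptors did not follow. Itga3, which pairs with beta1 to bind laminin, fell in WT + VC from 17.9, 19.6 and 22.3 to 2.38, 2.41 and 3.12 CPM (-2.91 ± 0.18, adjusted p = 9.34e-16). In D/KO + VC it lay at 18.8, 21.99 and 17.9 CPM at day 0, 5.62, 6.93 and 7.55 CPM at day 2 and 21.5, 21.4 and 14.9 CPM at day 4, so that the fall at day 2 (-1.54 ± 0.16, adjusted p = 5.68e-10) was absent at day 4 (-0.02 ± 0.15, adjusted p = 0.918). This depended on the baseline: D/KO day 0 cells without VC held 68.02, 68.2 and 80.9 CPM, and against these day 4 + VC was lower, with a log2 fold change of -1.91. Without VC, Itga3 fell at day 4 in D/KO (-1.26 ± 0.14, adjusted p = 5.63e-09) and in WT (-1.56 ± 0.16, adjusted p = 1.32e-09). Itga7, the laminin receptor of muscle, fell in WT + VC (-2.19 ± 0.22, adjusted p = 4.39e-10) but was not called in D/KO + VC (-0.13 ± 0.20, adjusted p = 0.603).

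Of the 4 collagen-binding chains, Itga11 and Itga1 fell with VC at day 4 in both lines. Itga11 (ENSMUSG00000032243, chr9:62585108-62691264, plus strand) held 550.2, 601 and 467 CPM in D/KO day 0 + VC, 54.7, 42.4 and 42.1 CPM at day 2 + VC and 24.1, 20.00 and 21.4 CPM at day 4 + VC. In WT + VC it held 242, 258 and 235 CPM, 22.99, 27.6 and 27.5 CPM and 15.7, 10.6 and 16.2 CPM. No library with doxycycline reached the lowest day 0 library of its arm. The log2 fold change at day 4 + VC was -4.63 ± 0.17, adjusted p = 2.69e-22 in D/KO and -4.11 ± 0.17, adjusted p = 1.63e-20 in WT, the largest called fall in both. Without VC, D/KO cells went from a range of 280.4 to 336 CPM to one of 64.9 to 106 CPM (-1.84 ± 0.15, adjusted p = 1.78e-12) and WT cells from 116, 107 and 113 to 27.9, 30.2 and 30.9 CPM (-1.92 ± 0.16, adjusted p = 5.72e-12). Itga11 made up 52.5% ± 2.26 of alpha chain FPKM in D/KO day 0 + VC and 4.29% ± 0.344 at day 4 + VC. Summed fibroblast markers lay at 183651 to 253222 CPM on day 0 and 33143 to 34341 CPM on day 4 in D/KO + VC, and at 155666 to 171437 and 60949 to 72044 CPM in WT + VC. Of the 10 markers, 7 fell and Thy1 rose in D/KO + VC, and 6 fell and Dcn and Thy1 rose in WT + VC, with Vim called in neither; their part in these falls was not tested.

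Itga1, a receptor for basement membrane collagen, also fell. It lay at 111, 106 and 121 CPM in D/KO day 0 + VC and 21.4, 15.8 and 18.1 CPM at day 4 + VC, and at 91.2, 124 and 96.1 CPM and 31.4, 26.9 and 23.6 CPM in WT. The changes were -2.61 ± 0.16, adjusted p = 2.04e-16 and -1.93 ± 0.15, adjusted p = 8.22e-13, and in D/KO the change was -1.41 against day 0 without VC. Without VC the day 4 libraries overlapped those of day 0 in D/KO cells (35.5 to 45.9 against 40.7 to 57.1 CPM) and lay just below them in WT (73.8 to 76.3 against 77.9 to 85.9 CPM), and neither difference was called. The other collagen receptors were scarce: Itga2 was highest in the D/KO day 0 libraries, at 2.71, 4.11 and 3.24 CPM, and Itga10 ranged from 0.211 to 5.89 CPM over the 36 libraries. Itga2 rose in WT day 4 (1.86 ± 0.50, adjusted p = 0.00581), at 1.07, 0.901 and 0.994 CPM against 0.276, 0.376 and 0.153 CPM.

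Among RGD-binding chains, Itga8, a receptor for nephronectin, was higher with VC than without it at day 0 in both lines. At day 4 the libraries with VC did not lie above those without it. D/KO libraries held 2.06, 2.17 and 2.24 CPM at day 0 without VC, 17.1, 14.4 and 13.1 CPM at day 0 + VC and 0.952, 0.947 and 2.11 CPM at day 4 + VC. WT libraries held 3.15, 1.99 and 2.60 CPM, 9.10, 10.1 and 11.6 CPM and 0.639, 1.04 and 1.13 CPM. The fall at day 4 + VC was -3.46 ± 0.27, adjusted p = 3.29e-13 in D/KO and -3.44 ± 0.29, adjusted p = 2.92e-12 in WT against day 0 + VC. Against day 0 without VC it was -0.69 (adjusted p = 0.0481) and -1.45 (adjusted p = 0.000178), a much smaller fall. Without VC at day 4, Itga8 was 3.64, 2.09 and 2.86 CPM in D/KO, overlapping day 0, and 0.716, 0.901 and 0.718 CPM in WT, below day 0 (-1.72 ± 0.31, adjusted p = 4.84e-05).

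Itga5 fell from 376, 382 and 518 CPM to 149.9, 148 and 168 CPM in D/KO cells without VC (-1.45 ± 0.11, adjusted p = 1.46e-13) and from 227, 287 and 239 to 135, 153 and 144 CPM with VC (-0.80 ± 0.11, adjusted p = 7.6e-08). In WT cells it went from 242, 216 and 191 to 140.04, 135 and 133 CPM without VC (-0.67 ± 0.11, adjusted p = 1.01e-05) and from 203, 193 and 202 to 138, 142 and 141 CPM with VC (-0.51 ± 0.11, adjusted p = 0.000203). The 12 libraries at day 4 of the 4 arms lay between 133 and 168 CPM, from different starts. Itgb1, its partner, fell in all 8 comparisons with day 0, although the WT day 2 call ended without replicate 2 of 4F_WT_day2. Its libraries went from 1296, 1261 and 1599 to 904, 775 and 852 CPM in D/KO + VC (-0.72 ± 0.10, adjusted p = 1.1e-07) and from 1204, 1258 and 1279 to 792, 688 and 752 CPM in WT + VC (-0.74 ± 0.10, adjusted p = 9.46e-08). Itgav, the alpha chain shared by the vitronectin receptors, rose slightly in D/KO + VC (0.52 ± 0.12, adjusted p = 0.000463) and was not called in WT + VC (0.24 ± 0.12, adjusted p = 0.11).

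Itgb3, a partner of both Itgav and Itga2b, rose in WT cells and depended on the baseline in D/KO cells. WT + VC libraries went from 29.4, 36.2 and 33.6 to 144, 124 and 133 CPM (2.01 ± 0.12, adjusted p = 5.96e-16), and WT libraries without VC from 43.5, 42.6 and 51.6 to 116, 112 and 114 CPM (1.31 ± 0.12, adjusted p = 7.18e-11). D/KO libraries held 176, 164 and 230.1 CPM at day 0, 203, 180.3 and 199 CPM at day 4, 62.8, 73.7 and 56.5 CPM at day 0 + VC and 87.4, 83.1 and 77.2 CPM at day 4 + VC. Day 4 + VC was therefore higher than day 0 + VC (0.36 ± 0.12, adjusted p = 0.00923) and lower than day 0 without VC (-1.20). Itgb5 changed by at most 0.45 on the log2 scale against the day 0 of its own arm, and reached 0.64 at WT day 2 + VC and -0.55 at D/KO day 4 + VC against day 0 without VC. At D/KO day 4 + VC it stood at 528, 572 and 534 CPM against 572, 716 and 649 CPM (-0.25 ± 0.10, adjusted p = 0.0366), and this small fall turned to 0.13 when libraries were scaled by their totals alone. Itgb8, an activator of latent TGFb, had no call in these 8 comparisons.

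Itga2b, best known from platelets, lay at 7.64, 6.70 and 4.14 CPM in D/KO day 0 + VC and 1.37, 1.00 and 1.37 CPM at day 4 + VC (-2.29 ± 0.36, adjusted p = 1.24e-06), without overlap. In WT + VC the values were 9.60, 6.70 and 6.90 and 5.23, 7.13 and 3.66 CPM, which overlapped (-0.53 ± 0.30, adjusted p = 0.156). The 3 megakaryocyte markers summed to at most 1.16 CPM in any reprogramming library.

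Among the leukocyte chains, Itgal and Itgam had few counts. Itgal, the alpha chain of a lymphocyte adhesion receptor, was at 0 counts in all 6 D/KO day 0 libraries with and without VC and at 0.529, 0.223 and 0.632 CPM in D/KO day 4 + VC, which is at least 2.19-fold higher against a floor of 3 counts per library (adjusted p = 0.00622). At D/KO day 4 it held 0, 0.261 and 0.594 CPM, at least 1.56-fold higher, a call that ended without any 1 of the day 0 libraries or without replicate 3 of day 4. WT libraries held between 0 and 0.715 CPM, with no call. Itgam, a myeloid alpha chain, went from 0, 0 and 0.351 to 2.11, 2.12 and 3.00 CPM in D/KO + VC (adjusted p = 8.36e-05). Its day 0 + VC mean lay under the floor of 3 counts, so no fold is given. WT + VC libraries held 0.695, 0.614 and 0.266 CPM at day 0 and 0.639, 0.165 and 0.914 CPM at day 4. Its exons overlap those of Gm49368 on the same strand, so the counting could assign reads to either. The 8 leukocyte markers summed in D/KO + VC to 5.05 to 6.73 CPM at day 0 and 1.00 to 1.67 CPM at day 4, with Csf1r called lower (-3.39 ± 0.39, adjusted p = 3.64e-09), and their part in these chains was not tested.

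Itgb7, the beta chain of gut-homing receptors, was chosen after its values were seen, because it was called in all 8 comparisons. It rose from 0.647, 0.377 and 0.842 to 8.83, 12.8 and 9.22 CPM in D/KO + VC (4.02 ± 0.29, adjusted p = 1.88e-14) and from 1.26, 1.04 and 0.797 to 3.31, 2.25 and 2.10 CPM in WT + VC (1.29 ± 0.29, adjusted p = 0.000356). Its highest group was day 2 without VC in D/KO, at 15.7, 20.9 and 18.2 CPM, and day 2 + VC in WT, at 8.22, 6.54 and 7.85 CPM. Of its alpha partners, Itgae was near 0, and Itga4 held 29.5, 22.7 and 21.5 CPM in D/KO day 4 + VC against 45.4, 44.7 and 25.3 CPM at day 0 + VC. Itga9 fell in all 8 comparisons, with log2 fold changes from -1.42 to -0.53. The last of these, at WT day 2, lost its call without any 1 of 3 libraries (adjusted p = 0.0651 to 0.0916), as 6 of the 15 calls at WT day 2 did without at least 1 library. Itgb2, the beta partner of Itgal and Itgam, was not called in any.

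**Figure D3:**
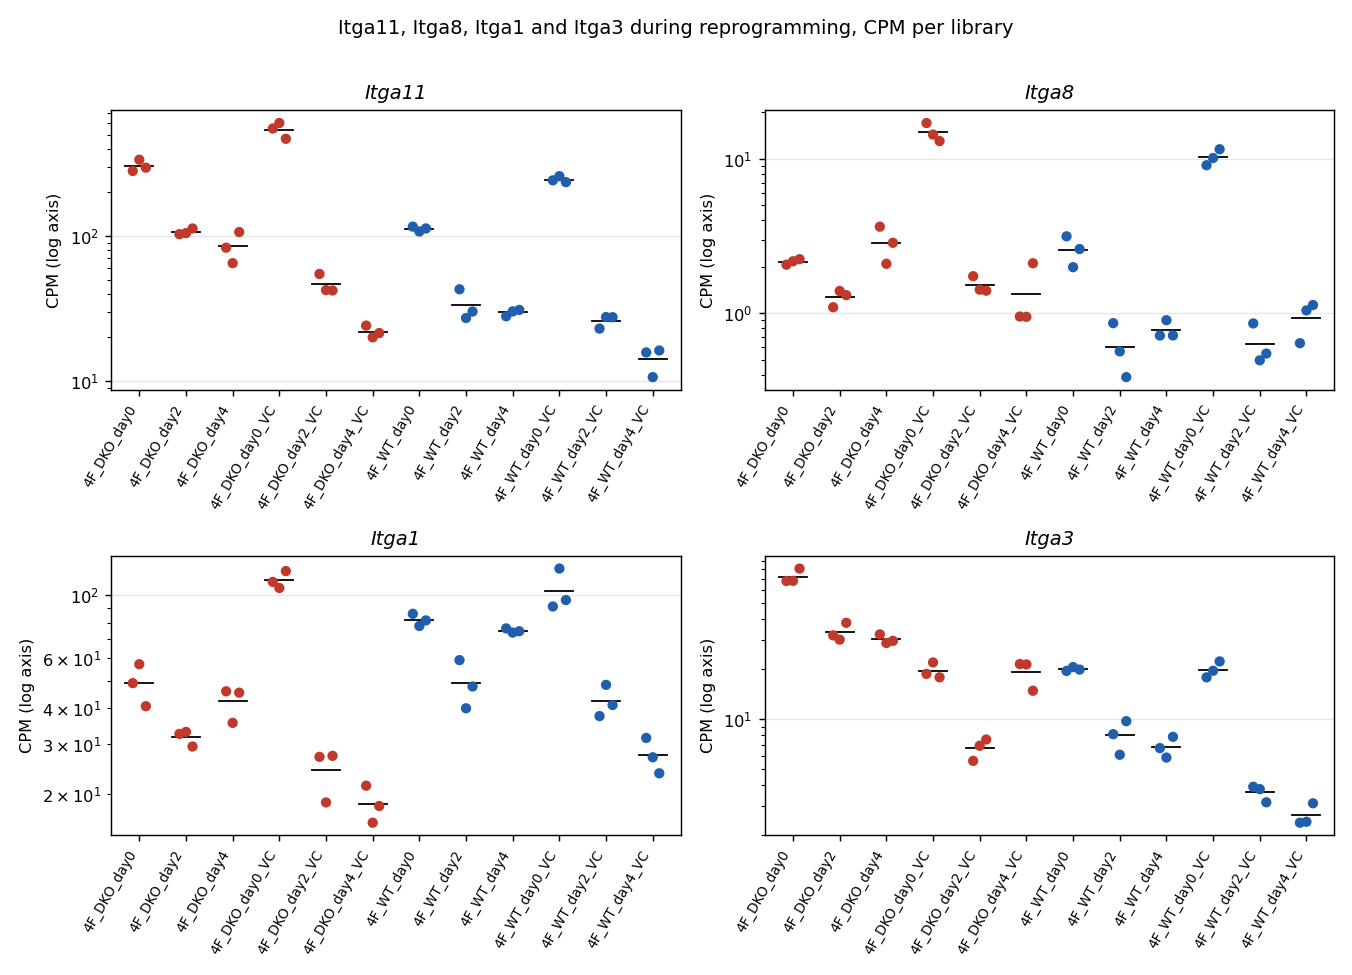
CPM per library (log axis) of the alpha chains Itga11, Itga8, Itga1 and Itga3 in the 12 reprogramming groups, D/KO in red and WT in blue, with black bars at the mean of 3 libraries. Itga11 lies at 467 to 601 CPM in D/KO day 0 + VC and at 20.00 to 24.1 CPM in D/KO day 4 + VC, below every day 0 library.

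Lama1, an alpha chain of embryonic basement membranes, was scarce, with 0.777, 1.21 and 0.561 CPM in D/KO day 0 + VC and 3.91, 2.12 and 1.84 CPM at day 4 + VC (1.63 ± 0.56, adjusted p = 0.0152). Against day 0 without VC (4.32, 4.87 and 2.59 CPM) the difference was -0.58 and not called (adjusted p = 0.348). In WT cells Lama1 was at 0 counts in all 6 libraries at day 2 + VC and day 4 + VC and at 0, 0 and 0.332 CPM at day 0 + VC, so no fold is given. Lama5, an alpha chain of mature epithelial and vascular basement membranes, was singled out after its values were seen. It fell at D/KO day 2 + VC from 75.2, 82.9 and 62.6 to 32.2, 28.9 and 25.1 CPM (-1.36 ± 0.16, adjusted p = 6.75e-09), then stood at 238, 201 and 141 CPM at day 4 + VC (1.39 ± 0.15, adjusted p = 1.24e-09). Against day 0 without VC these were -2.17 and 0.58, both called. In WT + VC it fell from a range of 38.8 to 47.9 CPM to one of 14.7 to 19.6 CPM (-1.30 ± 0.16, adjusted p = 4.37e-08). Without VC it fell at day 4 in both lines, by 1.000 in D/KO and by 1.20 in WT on the log2 scale. Endothelial markers summed to 228 to 268 CPM at D/KO day 0 + VC, 221 to 258 CPM at day 2 + VC and 562 to 792 CPM at day 4 + VC, and their part in Lama5 was not tested. Of the 5 endothelial markers Pecam1, Tek and Tie1 were called higher at day 4 + VC, Cdh5 was called lower and Kdr was not called. Exons of Lama5 overlap those of Adrm1 on the other strand, and the strand setting of the counting was not given in the sources used here.

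The abundant laminin chains had smaller changes. Lamb1 went from 697, 762 and 828 to 494, 471 and 512 CPM in D/KO + VC (-0.63 ± 0.10, adjusted p = 2.82e-06) and from 634, 714 and 653 to 566, 533 and 556 CPM in WT + VC (-0.27 ± 0.10, adjusted p = 0.0288; 0.01 with library totals alone). Lamb2 fell in D/KO + VC from 652, 709 and 642 to 371, 342 and 356 CPM (-0.91 ± 0.11, adjusted p = 1.63e-08) and was not called in WT + VC, at 625, 609 and 584 against 709.8, 589 and 569 CPM. Lamc1 held 513, 658 and 491 and 644, 527 and 458 CPM in D/KO + VC and 482, 577 and 604 and 732, 611 and 671 CPM in WT + VC, with no call in either. Lama2 had no call at any day against the day 0 of its own arm; against day 0 without VC it was called higher at D/KO day 2 + VC (0.49), WT day 2 + VC (0.45) and WT day 4 + VC (0.52). Lama4 changed by at most 0.73 on the log2 scale against the day 0 of its own arm, and by 1.35 and 1.28 at WT day 2 + VC and day 4 + VC against day 0 without VC. Lamc3, a gamma chain, was called at WT day 4 (1.04 ± 0.37, adjusted p = 0.0378) and, in the other direction, at WT day 4 + VC (-1.08 ± 0.38, adjusted p = 0.0207); the first call ended without any 1 of the 6 libraries. Without a known strand setting, reads of overlapping exons may be shared: Itgb4 overlaps Galk1, Lamb3 G0s2, Lamb1 Dld, and Itga1 Mocs2 and Gm49395.

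To ask what VC did by itself, day 0 cells with and without it were compared. In D/KO cells 7 chains were higher and 13 lower with VC (26.1% of all genes called, 12.1% higher and 14% lower), and in WT cells 7 were higher and 4 lower (29.4%, 15.1% higher and 14.4% lower). Itga11 was higher with VC in D/KO (0.83 ± 0.15, adjusted p = 3.5e-05) and in WT (1.13 ± 0.15, adjusted p = 2.27e-07), as were Itga8 (2.78 and 1.99) and Itga4 (2.17 and 2.25). Itga1 was higher in D/KO (1.21 ± 0.15, adjusted p = 6.18e-08) and not called in WT (0.34 ± 0.15, adjusted p = 0.072). Itga2 (-3.14 ± 0.48, adjusted p = 2.83e-06) and Itga5 (-0.76 ± 0.11, adjusted p = 7.44e-07) were lower in D/KO and not called in WT (0.72 and -0.11). Itga6 was lower in both (-1.81 and -0.92), and Lamb3 (-1.37 and -2.34) and Itgb3 (-1.56 and -0.47) were lower too. Lama1 was lower in D/KO (-2.21). In WT it held 0.497, 0.698 and 0.511 CPM without VC and 0, 0 and 0.332 CPM with it, and its call ended without any 1 of 5 of the 6 libraries, at adjusted p from 0.0567 to 0.158, all but replicate 3 of 4F_WT_day0_VC. Endothelial markers summed to 664 to 724 CPM in D/KO day 0 and 228 to 268 CPM with VC, and fibroblast markers to 80123 to 119052 and 183651 to 253222 CPM. In WT cells endothelial markers summed to 14.6 to 17.4 and 4.79 to 7.08 CPM, and fibroblast markers to 52105 to 53871 and 155666 to 171437 CPM. The part of these markers in the differences was not tested. Itgb4 was lower in D/KO (-0.91 ± 0.15, adjusted p = 1.82e-05) and not called in WT (-0.10 ± 0.16, adjusted p = 0.692). All 4 laminin-binding chains were lower with VC in D/KO cells, against 1 of 4 in WT cells. In D/KO cells the call of Lamb2 (0.37) ended without replicate 3 of 4F_DKO_day0, at 0.22 (adjusted p = 0.164). It also ended without replicate 2 of 4F_DKO_day0_VC, and the calls of Itga10 and Itgb5 ended without replicate 1 of that group. The WT count was 7 rather than 11 without replicate 1 of 4F_WT_day0, and its split turned to 5 up and 10 down when libraries were scaled by their totals alone. Under that scaling the median log2 fold change of all genes was -0.29.

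The same comparison was made at day 4 of doxycycline. Against day 4 without VC, 7 chains were higher and 10 lower in D/KO (34.5% of all genes called, 16.8% higher and 17.7% lower), and 5 higher and 10 lower in WT (22.4%, 12% higher and 10.4% lower). Itgb4 was higher with VC (1.19 ± 0.13, adjusted p = 4.75e-09 in D/KO and 1.89 ± 0.13, adjusted p = 3.65e-13 in WT), as was Itga6 (1.39 ± 0.12, adjusted p = 4.33e-11 and 1.61 ± 0.13, adjusted p = 9.29e-12). Itga11 was lower (-1.96 ± 0.16, adjusted p = 4.41e-12 and -1.06 ± 0.16, adjusted p = 4.66e-06). Itga4, the alpha chain of a fibronectin and VCAM1 receptor, was higher in both (1.01 and 1.22). Lama5 differed in direction, higher in D/KO (1.58 ± 0.15, adjusted p = 4.15e-10) and lower in WT (-0.48 ± 0.17, adjusted p = 0.0315); the WT call ended without replicate 2 or 3 of either group.

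The choice of baseline therefore changed some results. With day 0 without VC as the reference, Itga4 (-0.65 to 1.52) and Itgb3 (0.36 to -1.20) were called in the opposite direction at D/KO day 4 + VC. So were Itgb3 at D/KO day 2 + VC (0.91 to -0.65) and Itga4 at WT day 2 + VC (-1.17 to 1.08), and at WT day 4 + VC Itga4 went from no call (-0.49) to a rise (1.76). At D/KO day 4 + VC Itga10, Itgav, Lama1 and Lama4 lost their call, and Itga2, Itga3, Itga7 and Lamc1 were newly called as lower. Itgb4 (6.31) and Itga11 (here -3.80) kept direction and call, as did Itga5 (-1.56), Itga9 (-1.92), Itga2b (-1.60), Itgb7 (3.17) and Lama3 (5.65), each moved by over 1.5 times as a fold. At WT day 4 + VC Lamb1 and Lamc3 lost their call, and Itga6 (1.74), Itga8 (-1.45), Itga11 (-2.98) and Lamb3 (2.10) kept theirs. Itga10 (0.95), Lama2 (0.52) and Lamc1 (0.63) were newly called there as higher, and Itga2b (-0.82) and Lama1 as lower.

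The starting levels of the lines differed in most chains. At day 0 without VC, 18 chains were higher and 8 lower in D/KO than in WT cells (43.2% of all genes called, 22.1% higher and 21.1% lower). Itga6 (2.15 ± 0.13, adjusted p = 1.02e-15), Itgb3 (2.05 ± 0.12, adjusted p = 3.12e-16), Itga3 (1.85 ± 0.15, adjusted p = 1.3e-12) and Itga11 (1.44 ± 0.15, adjusted p = 8.01e-10) were among those higher. Itgb2, Itga10 and Lama3 were among those lower (-3.40, -2.11 and -1.96). Without replicate 3 of 4F_DKO_day0 the difference was -2.89 for Lama3. Itgam was lower too, at 0, 0 and 0.118 CPM in D/KO against 1.66, 1.13 and 0.613 CPM in WT (adjusted p = 0.000541), with no fold given since the D/KO mean lay under the floor. Leukocyte markers summed to 4.71 to 8.37 CPM in D/KO and 18.2 to 39.9 CPM in WT at day 0, and the part of such cells in Itgb2 and Itgam was not tested. Without that library Itga4, Itgb1 and Lama2 were no longer called. The call of Itgb1 ended without any 1 of the 6 libraries, and that of Itga4 without any 1 of 4 of them.

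Whether the lines changed by different amounts was tested as the difference of changes, D/KO minus WT. At day 4 + VC 15 chains differed, 10 toward D/KO and 5 toward WT (29.4% of all genes called, 13.9% higher and 15.5% lower), and at day 4 14 differed, 6 toward D/KO and 8 toward WT (14.3%, 7.27% higher and 7.04% lower). Differences toward D/KO at day 4 + VC included Itga3 (2.89 ± 0.23, adjusted p = 1.06e-11). Itgam and Lama1 were among the 15, but no size can be read from their differences. Itgam at D/KO day 0 + VC and Lama1 in both WT + VC groups were at or under the floor of 3 counts. The call of Lama1 ended without replicate 3 of 4F_WT_day0_VC, which held the only counts of its group (adjusted p = 0.99989), and without any 1 of the WT day 4 + VC libraries. The largest toward WT were Itga2b (-1.76 ± 0.47, adjusted p = 0.00437) and Itgb3 (-1.65 ± 0.17, adjusted p = 1.85e-09). Among chains with higher counts, Itgb4 (1.82 ± 0.21, adjusted p = 2.84e-08), Lama5 (2.69 ± 0.23, adjusted p = 2.24e-11) and Lamb3 (2.40 ± 0.36, adjusted p = 4.3e-06) differed toward D/KO. Itga11 (-0.52 ± 0.22, adjusted p = 0.0733) and Itga8 (-0.03 ± 0.44, adjusted p = 0.985) were not called, with 95% intervals of -0.96 to -0.07 and -0.93 to 0.88. With day 0 without VC as the reference in both lines, chosen after seeing the data, several of these differences moved. Itga6 (0.58 to -0.31) and Itga1 (-0.69 to 0.17) changed sign and were not called, Itga2b was not called (-0.78), and the difference of Itga3 was 1.01. Those of Itga7 (0.88) and Itgb4 (1.02) were smaller, and those of Itgb3 (-2.74), Lamb3 (3.36) and Lama3 (3.66) larger, all still called. Itga2, Itga5, Itga11, Itgb5, Lamb1 and Lamc1 were then called toward WT. Induction itself differed in part, since Pou5f1 lay at 62.2 to 76.0 CPM in D/KO day 2 and 12.5 to 48.8 CPM in WT day 2, whereas at day 4 + VC the ranges were 89.7 to 149.7 and 88.3 to 108 CPM.

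**Figure D4:**
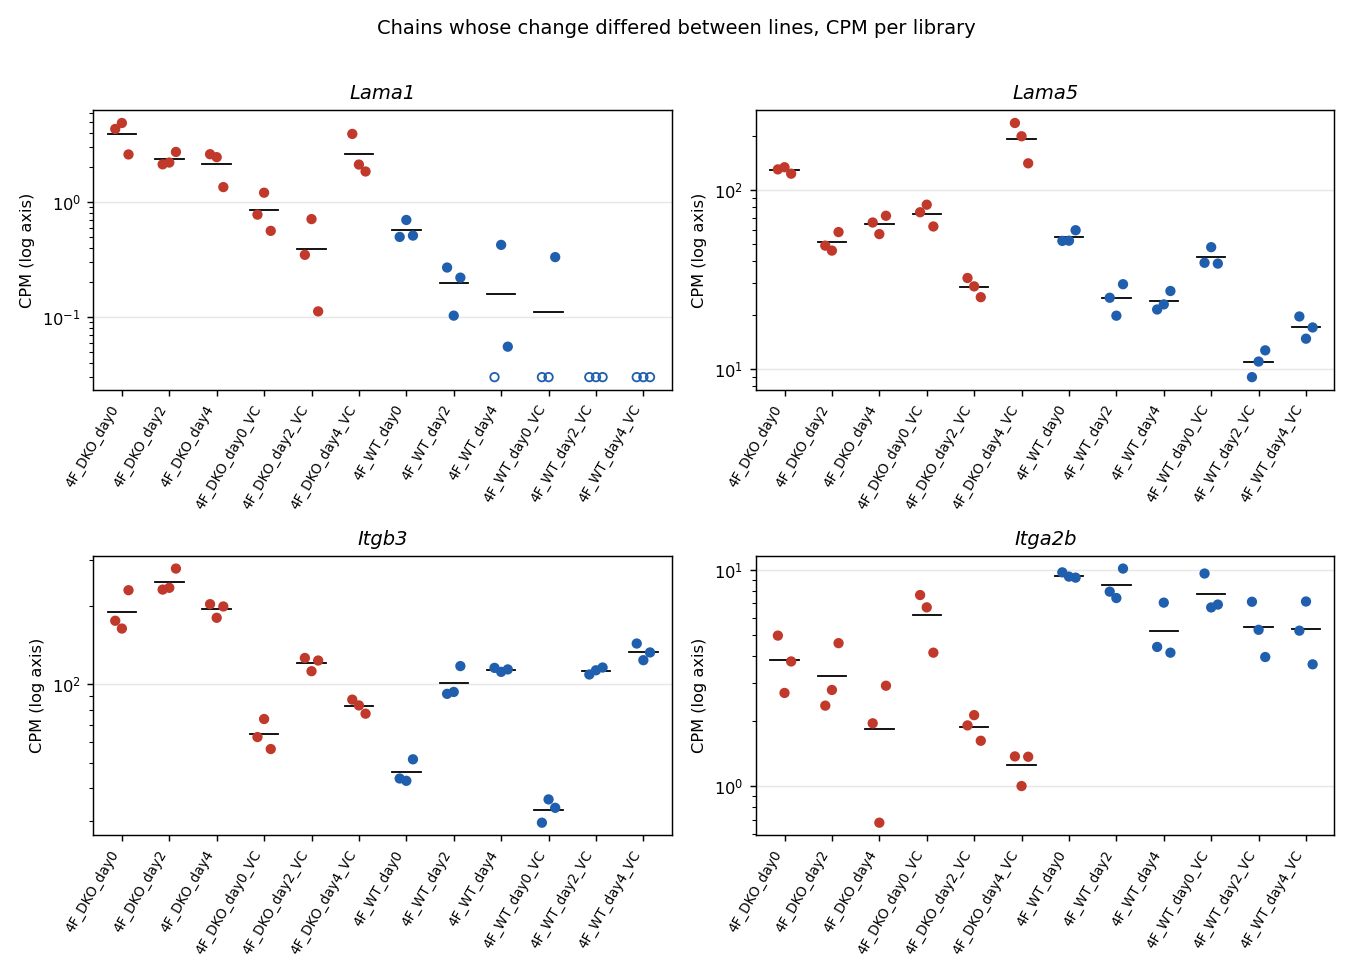
CPM per library (log axis) of Lama1, Lama5, Itgb3 and Itga2b in the 12 reprogramming groups, D/KO in red and WT in blue; bars are means of 3 libraries and open circles are libraries at 0, drawn at the lower edge. Lama5 stands at 141 to 238 CPM in D/KO day 4 + VC and at 14.7 to 19.6 CPM in WT day 4 + VC, while Itgb3 is higher at day 4 than at day 0 in both WT arms and, by less, in D/KO + VC.

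The inhibitor table asked how chains respond when TGFb superfamily receptors are blocked in D/KO cells without reprogramming. Repsox and A83-01 inhibit ALK5, the type I TGFb receptor, Vactosertib inhibits ALK5 with related receptors, and DMH-1 inhibits the BMP receptor ALK2. The 4 comparisons share 1 set of control libraries. Of 31 tested chains, 8 rose and 8 fell with A83-01 (27.5% of 15652 genes called, 13.6% higher and 13.9% lower), 9 rose and 9 fell with Repsox (20.7%, 11% higher and 9.73% lower), and 8 rose and 9 fell with Vactosertib (18.1%, 9.37% higher and 8.7% lower). With DMH-1, 0 rose and 1 fell (7.25%, 4.35% higher and 2.9% lower), with 5 chains at an unadjusted p below 0.05, 1 called by DESeq2, and 6 (3 up and 3 down) when only the groups compared were fitted.

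Itga11 fell and Itga8 rose under each ALK5 inhibitor. DKO_control held 175, 267 and 274 CPM of Itga11, against 40.1, 16.05 and 41.3 CPM with Repsox, 40.5, 59.9 and 39.01 CPM with Vactosertib, 18.6, 28.1 and 25.1 CPM with A83-01 and 175, 209.8 and 171 CPM with DMH-1. The libraries of the first 3 compounds all lay below the control, and those of DMH-1 overlapped it at its lowest library. The log2 fold changes were -2.88 ± 0.46, adjusted p = 9.25e-05 for Repsox, -2.36 ± 0.45, adjusted p = 0.000724 for Vactosertib and -3.32 ± 0.47, adjusted p = 1.36e-05 for A83-01. Itga8 held 1.28, 1.56 and 1.18 CPM in the control, 12.4, 5.57 and 9.11 CPM with Repsox, 6.13, 7.79 and 3.55 CPM with Vactosertib, 11.6, 12.3 and 9.83 CPM with A83-01 and 1.25, 2.49 and 1.05 CPM with DMH-1. Its rise was 2.75 ± 0.40, adjusted p = 2.86e-05, 2.12 ± 0.40, adjusted p = 0.000648 and 3.06 ± 0.40, adjusted p = 4.82e-06 for Repsox, Vactosertib and A83-01. Npnt, which encodes its ligand nephronectin and is not among the 35, went from 10.3, 12.05 and 11.98 to 35.7, 41.9 and 41.9 CPM with A83-01 (1.80 ± 0.30, adjusted p = 9.85e-05). The 4 Schwann cell markers summed to 7.38 to 10.1 CPM in the control, 19.7 to 22.9 CPM with Repsox, 14.8 to 21.5 CPM with Vactosertib and 33.1 to 42.2 CPM with A83-01. Fibroblast markers summed to 79225.5 to 84489, 40702 to 48239, 49125 to 52597 and 42458 to 45184 CPM in the same order. For endothelial markers the sums were 290.03 to 339, 180.5 to 339, 256 to 329 and 122 to 163 CPM. The part of these markers was not tested.

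Itga5, the alpha chain of the fibronectin receptor, fell with every compound. It held 402, 430.2 and 448 CPM in the control, 214, 149.5 and 201 CPM with Repsox, 194, 212 and 193 CPM with Vactosertib, 149, 167 and 146 CPM with A83-01 and 227, 242 and 222 CPM with DMH-1, and each treated library lay below each control library. The change was -1.47 ± 0.16, adjusted p = 3.02e-07 for A83-01 and -0.89 ± 0.15, adjusted p = 0.000752 for DMH-1, for which it was the 1 called chain. Itgb1 fell under the ALK5 inhibitors, from 1645, 1685 and 1637 to 1230.4, 1305 and 1260.3 CPM with A83-01 (-0.39 ± 0.11, adjusted p = 0.0112). Itgb3 fell from 99.1, 101 and 103 to 34.2, 32.5 and 32.7 CPM with A83-01 (-1.61 ± 0.17, adjusted p = 2.01e-07), and by 0.66 and 0.62 on the log2 scale with Repsox and Vactosertib. Itgb5 fell by 0.58 with A83-01, from 617.8, 614 and 648 to 437, 415 and 407 CPM. Itgb8 rose instead, from 6.94, 9.66 and 7.67 to 16.96, 28.9 and 24.7 CPM with A83-01 (1.54 ± 0.24, adjusted p = 3.48e-05), and Itga2b rose with the 3 ALK5 inhibitors (0.75, 0.74 and 0.85). The 3 megakaryocyte markers summed to 0 to 0.146 CPM in the control, 0.419 to 0.717 CPM with Repsox, 0.143 to 0.492 CPM with Vactosertib and 0.0739 to 0.615 CPM with A83-01, where Pf4 was called higher (adjusted p = 0.045), and their part in Itga2b was not tested.

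Itga1 and Itga4 rose with all 3, at 1.31 and 1.51 on the log2 scale for A83-01. With Vactosertib the call of Itga4 ended without any 1 of 5 of the 6 libraries, all but replicate 3 of DKO_Vactosertib, and that of Lamc3 without any 1 of the 6. The Vactosertib calls of Itgb8 and Lamb2 ended without any 1 of 5 libraries, those of Itga3 and Itga2b without any 1 of 4, that of Itgb5 without any 1 of 3, and those of Itgb1 and Itgb3 without replicate 3 of DKO_Vactosertib. Itga3 rose with Repsox (0.86 ± 0.22, adjusted p = 0.00647) and Vactosertib (0.70 ± 0.22, adjusted p = 0.0275) and was not called with A83-01 (0.41 ± 0.22, adjusted p = 0.174). Itga7 fell with all 3 (-1.22, -1.22 and -1.08). Itgb4 held 9.45, 10.8 and 13.6 CPM in the control and 16.4, 23.1 and 20.9 CPM with A83-01 (0.84 ± 0.27, adjusted p = 0.0241), and the call ended without replicate 1 or 2 of DKO_control or replicate 2 or 3 of DKO_A83-01. Itga6 was not called with any compound, with control libraries at 38.4, 44.7 and 40.9 CPM and A83-01 libraries at 27.1, 43.6 and 31.6 CPM. Itgal was called with Repsox alone, at 0.229, 0.358 and 0.311 CPM against 0, 0.0488 and 0 CPM, where the control held 1 count in a single library; the call ended without replicate 1 or 3 of DKO_control.

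Laminin chains moved in both directions. Lama1 fell from 4.47, 4.78 and 5.78 to 1.71, 0.597 and 1.38 CPM with Repsox, 1.66, 1.70 and 1.62 CPM with Vactosertib and 0.462, 0.764 and 0.370 CPM with A83-01 (-3.22 ± 0.38, adjusted p = 1.28e-06), without overlap with the control. Lama3 rose from 0.341, 0.0976 and 0.0590 to 2.19, 1.83 and 2.81 CPM with A83-01 (3.65 ± 0.59, adjusted p = 6.65e-05) and was also called with Repsox (2.81) and Vactosertib (2.88). Its partner Lamb3 was not called with A83-01, at 0.894, 0.781 and 0.826 against 1.27, 1.03 and 2.33 CPM. Lamb1 fell from 779, 888 and 911 to 441, 522 and 488 CPM (-0.83 ± 0.15, adjusted p = 0.000245), whereas Lamb2 rose from 384, 459 and 469 to 835, 934 and 887 CPM (1.02 ± 0.23, adjusted p = 0.00188). Lamb2 thus made up 25.9% ± 0.952 of laminin FPKM in the control and 51.2% ± 2.57 with A83-01. Lamc1 was not called with any compound, at 462, 631 and 697 CPM in the control and 364, 567 and 434 CPM with A83-01. Lama2, Lama4 and Lama5 were not called either.

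**Figure D5:**
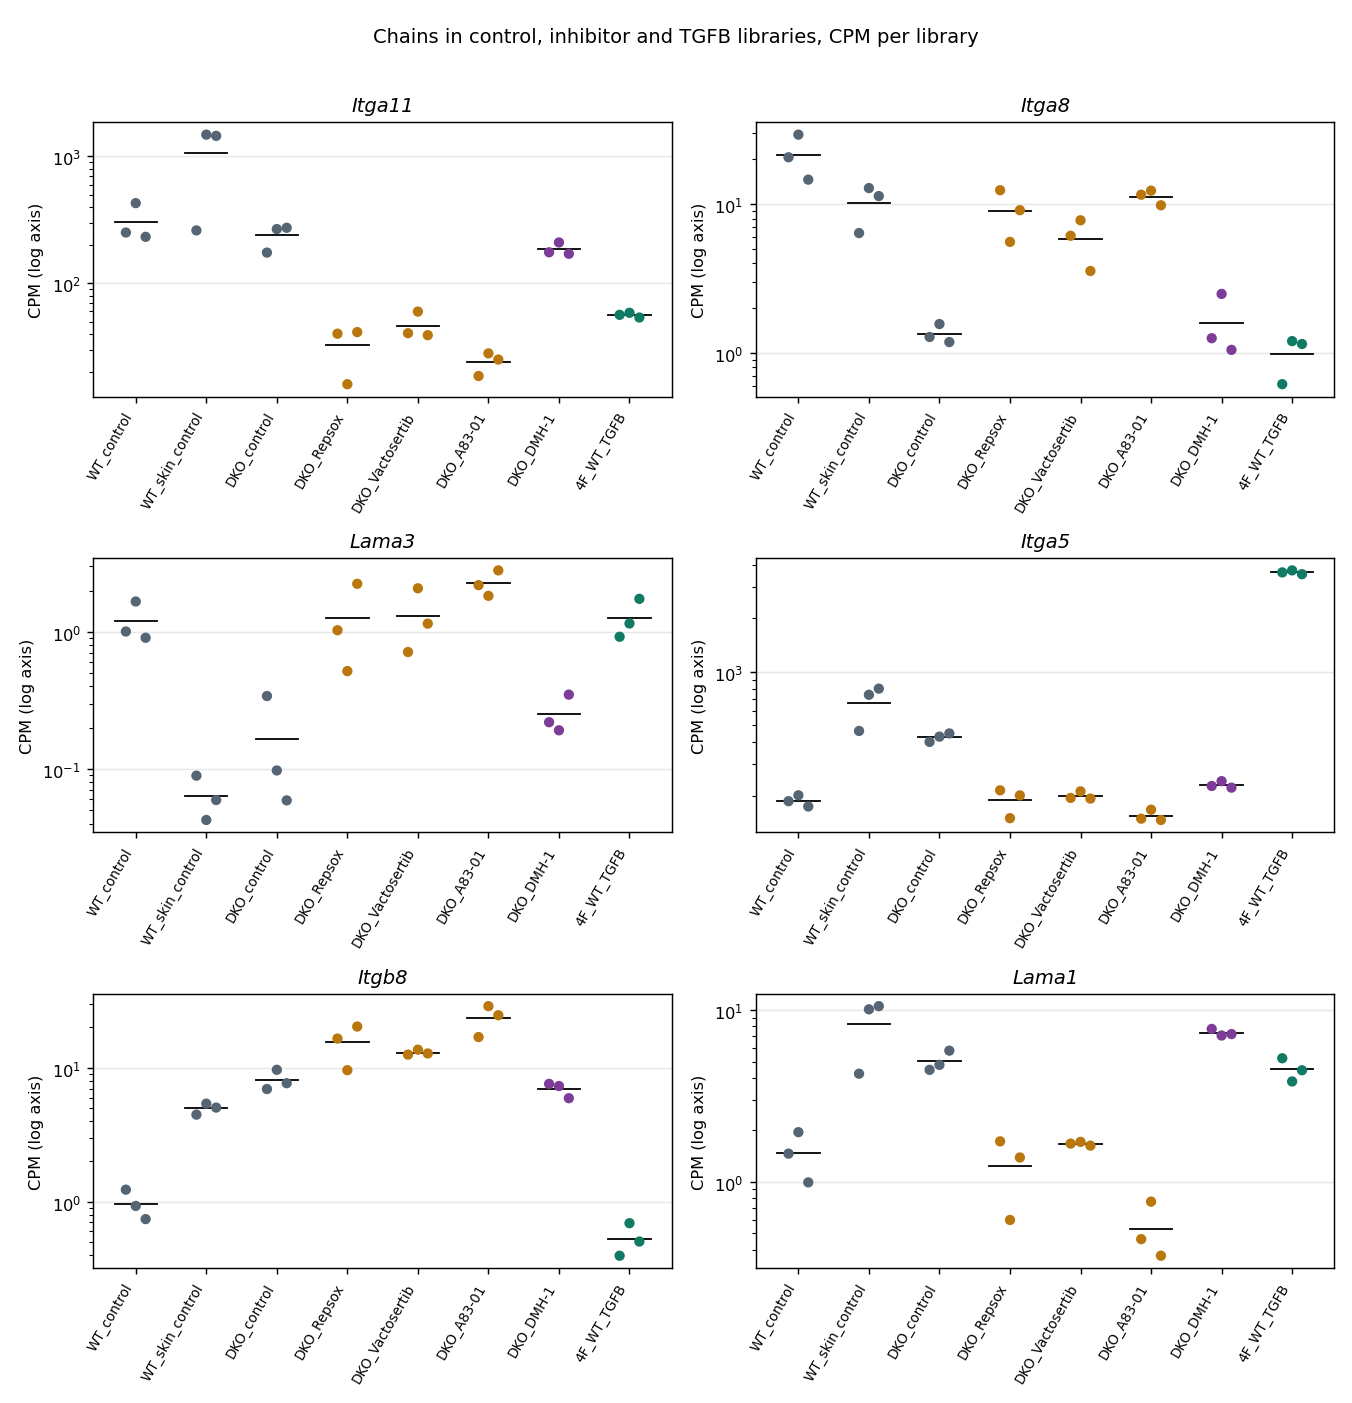
CPM per library (log axis) of Itga11, Itga8, Lama3, Itga5, Itgb8 and Lama1 in the 8 groups of the inhibitor table; points are libraries and bars are means of 3. The 3 ALK5 inhibitor groups (orange) lie below DKO_control for Itga11, Itga5 and Lama1 and above it for Itga8 and Lama3, while DMH-1 (purple) lies below it for Itga5, and 4F_WT_TGFB (green) holds 3533 to 3709.9 CPM of Itga5.

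Compounds were compared where the dose stated by the study was the same, in 2 pairs over all genes. Repsox and Vactosertib, both at 0.1 µM, differed in 0 of the 15652 genes tested, with 347 genes and 1 chain (Itgal) at an unadjusted p below 0.05 and 6 genes and 0 chains called by DESeq2. This does not show that they act alike: the difference in Itga11, Repsox minus Vactosertib, was -0.52 with a 95% interval of -1.42 to 0.39, that in Itga8 was 0.63 (-0.10 to 1.35), that in Lama3 was -0.06 (-1.04 to 0.92) and that in Itga5 was -0.08 (-0.40 to 0.24). A83-01 and DMH-1, both at 1 µM, differed in 12 chains, 5 higher and 7 lower with A83-01 (20.5% of all genes called, 9.67% higher and 10.8% lower), or 8 higher and 7 lower with library totals alone. Under that scaling the median log2 fold change of all genes was 0.084. Lama1 was lower with A83-01 (-3.78 ± 0.38, adjusted p = 2.07e-07), as were Itga11 (-2.95 ± 0.46, adjusted p = 7.07e-05), Itgb3 (-1.39 ± 0.16, adjusted p = 2.12e-06) and Itga5 (-0.58 ± 0.15, adjusted p = 0.00905). Lama3 (3.19 ± 0.54, adjusted p = 0.000173), Itga8 (2.79 ± 0.38, adjusted p = 1.36e-05) and Itgb8 (1.76 ± 0.24, adjusted p = 1.08e-05) were higher. For Itga6 the difference was -0.13 with a 95% interval of -0.64 to 0.39. The stated doses of Repsox and A83-01 differ: Itga11 means were 32.5 ± 14.2 and 23.9 ± 4.83 CPM (SD, n = 3) and Itgb3 means 63.9 ± 16.9 and 33.1 ± 0.960 CPM. Without replicate 2 of DKO_Repsox, Itga2b and Lamc3 lost their call with Repsox and Itgb4 gained it, at 0.99. The Vactosertib count was 10 to 13 rather than 17 with a library left out, and was lowest without replicate 2 of DKO_Vactosertib (10), followed by leaving out its replicate 3 or replicate 3 of DKO_control (11 each).

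Control cells without the cassette gave a second view of genotype and tissue. Between DKO_control and WT_control, which also differ in age, 16 chains were higher and 6 lower in D/KO (34.6% of all genes called, 17.9% higher and 16.6% lower). Lama5 (3.99 ± 0.46, adjusted p = 5.21e-07) and Itgb8 (3.05 ± 0.28, adjusted p = 2.13e-08) were higher, at 94.2, 143 and 152 against 6.75, 11.7 and 6.05 CPM and 6.94, 9.66 and 7.67 against 1.23, 0.930 and 0.741 CPM. Lamb3 (-4.43 ± 0.37, adjusted p = 6.29e-09) and Itga8 (adjusted p = 9.93e-08) were lower, at 0.894, 0.781 and 0.826 against 17.4, 17.8 and 19.4 CPM and 1.28, 1.56 and 1.18 against 20.7, 29.4 and 14.6 CPM. Endothelial markers summed to 290.03 to 339 CPM in DKO_control and 62.3 to 80.9 CPM in WT_control, and keratinocyte markers to 0.781 to 1.24 and 11.2 to 13.8 CPM.

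Skin fibroblasts differed from tail tip fibroblasts of the same genotype in 16 chains, 11 higher and 5 lower in skin (34.2% of all genes called, 18.1% higher and 16.1% lower). The skin libraries carry a WT label of their own, and whether they share an animal with the tail tip libraries was not given. Tissue and animal or culture therefore cannot be told apart here. Marker sums differed as well, with skeletal and smooth muscle at 143 to 149.9 CPM in skin and 25.3 to 27.9 CPM in tail tip, endothelium at 144 to 246 and 62.3 to 80.9 CPM, Schwann cell at 11.4 to 12.3 and 3.99 to 4.70 CPM, and keratinocyte and simple epithelium at 2.43 to 4.16 and 11.2 to 13.8 CPM. Their part in these differences was not tested. Lamc3 (4.84 ± 0.46, adjusted p = 4.96e-08) and Lama5 (3.13 ± 0.44, adjusted p = 1.02e-05) were higher in skin, at 8.72, 20.5 and 21.5 against 0.485, 0.930 and 0.329 CPM and 22.8, 103 and 88.7 against 6.75, 11.7 and 6.05 CPM. Lamb3 was lower (-3.67 ± 0.35, adjusted p = 5.1e-08), at 1.16, 2.00 and 1.07 against 17.4, 17.8 and 19.4 CPM. Lama3 was lower too (adjusted p = 0.000122), at 0.0894, 0.0425 and 0.0594 against 1.01, 1.67 and 0.906 CPM, with the skin mean under the floor and no fold given. Itgal was at 0 counts in skin and at 0.224, 0.194 and 0.124 CPM in tail tip, at least 1.23-fold lower. Itga11 held 261, 1482 and 1449.7 CPM in skin, where replicate 1 overlapped tail tip (251, 428 and 232 CPM). Without that library Itga8 was not called, and Itgb3, Itgb4, Itgb5 and Lama2 were.

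The libraries of the WT reprogramming line labelled TGFB had no control of their own line in the table and are given as values. Itga5 held 3614, 3709.9 and 3533 CPM, and the group with the next highest library was skin, at 463, 739.9 and 801 CPM. It made up 86.9% ± 0.583 of alpha chain FPKM. Itgb1 held 4582, 4512 and 4626 CPM, Itgb3 319, 327 and 314 CPM and Lamb3 54.6, 58.4 and 52.4 CPM, each above all 21 others. Itgb4 was at 1.36, 1.29 and 0.917 CPM and Itgb8 at 0.395, 0.691 and 0.504 CPM, each below all others. Muscle markers summed to 1723 to 2075 CPM in these libraries and to at most 149.9 CPM in the other groups of the table, and endothelial markers to 0.968 to 1.88 CPM.

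Partners of the chains were followed in 4 further lists. Of 6 hemidesmosome and tetraspanin partners, 5 rose and 0 fell in D/KO day 4 + VC, and 4 rose and 0 fell in WT day 4 + VC. Of all genes tested, 54.1% were called in D/KO (27.9% higher and 26.2% lower) and 44.7% in WT (22.7% higher and 22% lower). Col17a1, a hemidesmosome collagen, went from 0.777, 0.904 and 0.772 to 18.3, 14.04 and 13.4 CPM in D/KO (4.21 ± 0.40, adjusted p = 3.51e-11) and was not called in WT (0.29 ± 0.39, adjusted p = 0.588). Cd151, a tetraspanin that binds laminin receptors, rose in D/KO (1.47 ± 0.14, adjusted p = 2.05e-11). Of 25 tested cytoplasmic adhesion proteins, 6 rose and 8 fell in each line, a share near that of all genes in D/KO. Tns4 (3.89 ± 0.61, adjusted p = 1.41e-06) and Tns1 (1.34 ± 0.12, adjusted p = 7.56e-12), focal adhesion proteins of the tensin family, had the largest rises in D/KO, and the LIM proteins Tgfb1i1 (-1.55 ± 0.16, adjusted p = 1.81e-10) and Zyx (-1.24 ± 0.14, adjusted p = 1.57e-09) the largest falls.

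Among basement membrane partners and other laminin receptors, the laminin receptor Bcam rose in D/KO (1.54 ± 0.29, adjusted p = 3.11e-05) and fell in WT (-2.11 ± 0.45, adjusted p = 0.000219). The type IV collagen chains Col4a6 (-4.45 ± 0.35, adjusted p = 2.42e-13) and Col4a5 (-3.49 ± 0.17, adjusted p = 5.06e-19) had the largest falls in D/KO. Of 9 tested other integrin ligands, 1 rose and 7 fell in D/KO, and 0 rose and 7 fell in WT, beside 26.2% and 22% of all genes that fell. Npnt was the riser in D/KO, at 47.1, 40.7 and 31.9 against 28.4, 27.5 and 23.2 CPM (0.60 ± 0.19, adjusted p = 0.00662), and fell in WT (-2.04 ± 0.19, adjusted p = 5.94e-11). Tnc, the matrix protein tenascin C, went from 2115, 2238 and 3666 to 232, 181 and 242 CPM in D/KO (-3.61 ± 0.20, adjusted p = 3.08e-17), and Tgfb3, whose latent form binds RGD integrins, from 255, 261 and 234 to 28.6, 28.1 and 26.5 CPM (-3.17 ± 0.11, adjusted p = 3.46e-23). With A83-01, 3 hemidesmosome and tetraspanin partners rose and 0 fell, and 4 of 10 other ligands rose and 5 fell, beside 13.6% of all genes that rose and 13.9% that fell.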

How the data were processed

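The deposited files were 2 tables of raw counts per gene for 60 RNA-seq libraries (polyA RNA, paired reads). Per the study's methods, the authors trimmed reads with Trim Galore, aligned them with HISAT2 to GRCm39 and counted them with featureCounts (Subread); versions, annotation and strand setting were not given in the sources used here. Of 56980 gene identifiers, 56236 (98.7%) matched the annotation used for symbols. No value was normalised before deposit.

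Counts were fitted per table with edgeR 4.0.16 in R 4.3.3 (TMM scaling, genes kept by filterByExpr at a minimum count of 10 and a total of 15, quasi-likelihood F-test, 1 coefficient per group). Benjamini-Hochberg adjustment ran over all 15832 or 15652 tested genes, and a call means an adjusted p below 0.05. CPM are counts scaled to the TMM-adjusted library total, and FPKM used the deposited gene lengths. The fitting step was tested on simulated data. The common biological coefficient of variation was 0.132 in the reprogramming and 0.195 in the inhibitor table. Between libraries of a group the variance exceeded counting noise in every pair, so no pair was counted as 1. Alternatives were DESeq2 1.42.0, other scalings and filters, other sets of libraries and each of 57 libraries left out.

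The members and gene lists were chosen with earlier results of these data known. Chains were named by rule: the 3 largest called changes in each direction in D/KO day 4 + VC, WT day 4 + VC and A83-01, the 2 largest in the difference between lines, and the 3 most abundant integrin and 3 most abundant laminin chains at day 0. From each partner list, the 2 largest called changes in each direction were named. Further chains were named outside these rules, Itgb7 and Lama5 among them after their values were seen. Promoter windows are from RefSeq. The 95% intervals come from the fit and carry the spread between libraries, and the floor of 3 counts covers counting error only. Replicate numbers follow accession order. An item of the partner lists is not reported here.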

Additional observations from a re-analysis of the deposited data

Results flagged for a closer look

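The change on reprogramming differed between the lines, D/KO minus WT, for 15 chains at day 4 + VC by the test of the difference itself (edgeR). On the log2 scale the difference was 5.63 for Lama1, 4.17 for Itgam, 2.89 for Itga3, 2.73 for Itgb7, 2.69 for Lama5, 2.50 for Lama3, 2.40 for Lamb3, 2.06 for Itga7, 1.82 for Itgb4 and 0.58 for Itga6. It was -1.76 for Itga2b, -1.65 for Itgb3, -0.94 for Lamb2, -0.80 for Lama4 and -0.69 for Itga1. Against day 0 without VC in both lines, chosen after seeing the data, Itga6 was -0.31, Itga1 0.17 and Itga2b -0.78, none of them called, and Itga3 was 1.01, Itga7 0.88, Itgb4 1.02, Itgb3 -2.74, Lamb3 3.36 and Lama3 3.66, all called. The value of Itgam starts from a D/KO day 0 + VC mean under the floor of 3 counts, so no size can be read from it. The value of Lama1 is built on WT groups at or under the floor of 3 counts, so the same holds, and it was 1.63 (adjusted p = 0.99989) without replicate 3 of 4F_WT_day0_VC. Its call also ended without any 1 of the 3 libraries of 4F_WT_day4_VC. Lama3 lost its call without replicate 3 of 4F_WT_day0_VC, Itga6 without that library, replicate 2 of 4F_WT_day0_VC or replicate 1 of 4F_DKO_day4_VC, and Itga1 without replicate 2 of 4F_DKO_day4_VC or replicate 1 of 4F_WT_day4_VC.

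At day 4 without VC, 14 chains differed. The difference was 2.75 for Lama3, 2.74 for Lamb3, 2.12 for Itga8, 1.99 for Itgb7, 1.72 for Itgb4 and 1.36 for Itga7. It was -1.92 for Itga2, -1.28 for Itgb3, -0.93 for Lamc1, -0.79 for Itga5, -0.73 for Lama4, -0.68 for Lamb2, -0.57 for Lamb1 and -0.43 for Itgb1. The call of Itga2 ended without any 1 of 8 of the 12 libraries (adjusted p up to 0.116) and that of Itgb1 without any 1 of 9 (adjusted p up to 0.119). Itgb3, Itgb4, Itgb7, Itga7, Lama3, Lama4, Lamb2 and Lamb3 were called in both, each in the same direction.

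In the TGFB libraries of the WT reprogramming line, which entered no test, some chains stood above all 21 other libraries of the table and others below them. The share of all genes that stand apart in this way was not counted, so this does not mark out the chains. Mean levels of the chains above were 4574 CPM for Itgb1, 3619 CPM for Itga5, 787 CPM for Itgav, 319.98 CPM for Itgb3, 152 CPM for Lama2, 74.7 CPM for Itga7, 72.8 CPM for Itga6, 55.1 CPM for Lamb3, 40.5 CPM for Lamc3, 0.868 CPM for Itgax and 0.770 CPM for Itgal. The line, the cassette and the treatment change together here and cannot be told apart.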

How the results depend on the processing

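Of the recomputed counts of called chains, 292 stayed within 1.5 times the reported value and 8 did not. Requiring at least 10 counts in every library gave 11 rather than 17 chains for D/KO day 4 + VC against day 4, 7 rather than 11 for WT day 0 + VC against day 0 and 9 rather than 14 for the difference between lines at day 4; fewer genes are tested under that filter. Fitting only the groups compared gave 6 rather than 1 chains for DMH-1, 3 up and 3 down, and the cause was not tested. With 1 library left out, the count ran from 7 to 11 for VC at day 0 in WT cells and from 10 to 13 for Vactosertib. The difference between lines in Lama1 at day 4 + VC was 1.63 (adjusted p = 0.99989) without replicate 3 of 4F_WT_day0_VC and 5.62 to 5.63 (adjusted p = 0.0566 to 0.0596) without a library of 4F_WT_day4_VC. The difference in Itga2b at day 4 + VC was -0.78 (adjusted p = 0.264) with day 0 without VC as the reference, an alternative chosen after seeing the data. The other 297 recomputed values kept direction and call for single named chains, or order for the 3 most abundant integrin and laminin chains. With library totals alone the median log2 fold change of all genes ran from -0.29 to 0.377.

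Over all genes, fitting only the groups compared gave 6400 rather than 3880 calls for WT day 4, 1910 rather than 1135 for DMH-1, 4317 rather than 2828 for Vactosertib, 2523 rather than 4140 for VC in D/KO day 0 and 2591 rather than 5348 for skin. WT day 2 gave 1110 without replicate 1 of 4F_WT_day0 and 1067 without replicate 2 of 4F_WT_day2, rather than 1672, and DMH-1 gave 619 to 714 without a control library or replicate 2 of DKO_DMH-1. No paired analysis was possible because the labels number no replicates, so numbers only follow accession order. Low counts limit what can be said of Itgal, Itgam, Itga2, Lama1 and Lama3.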
